A study of Homo sapiens with 6 samples.

Results

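Cytosolic ribosomal proteins are the protein subunits of the ribosome that translates nuclear-encoded messenger RNA (mRNA). Their genes were taken by symbol: every row of the count table named RPL or RPS followed by a number, with or without a closing A or X, together with RPLP0, RPLP1, RPLP2 and RPSA. This gave 77 of 37923 genes, 46 for the large (60S) subunit and 31 for the small (40S) subunit, and all 77 passed the expression filter. FAU and RACK1, which also encode ribosome components, lie outside that naming rule and are given apart from it. The level of no gene was used to choose the 77.

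The comparison rests on 6 libraries. The 3 libraries of the group named Control and the 3 of the group named ENZ are labelled as RKO, a human colorectal carcinoma cell line, and the series design describes ENZ as exposure to compound A3, a degrader of the histone demethylase LSD1, with RNA taken at 48 h. The treatment of Control cells and the meaning of the letters ENZ stay unstated in the labels. The design calls the 3 libraries of a group biological replicates without naming dish, passage or day. A p-value therefore sets the difference between the groups only against the spread among these libraries, which may be technical. A degrader acts on protein, and mRNA levels do not check it. Polyadenylated RNA was sequenced to between 26691289 and 30025543 counts per library. The label of the cells and their markers differed. Averaged over the 6 libraries, 6 of the 10 colorectal epithelium markers in the table lay under 1 CPM (counts per 1000000 counts of the library). They were CDX1, KRT20, LGR5, HNF4A, GPA33 and CEACAM5, whereas 7 of 9 prostate luminal markers exceeded 10 CPM on average. Those 9 markers summed to between 2563 and 2602 CPM in Control and between 3032 and 3082 CPM in ENZ, and the 10 colorectal markers to between 1047 and 1086 CPM in Control and between 869.6 and 931 in ENZ, carried by EPCAM, VIL1, KRT8 and KRT18. All 6 leukocyte and all 4 endothelial markers in the table lay under 1 CPM on average, as did 3 of 6 fibroblast markers. The 6 fibroblast markers summed to between 77.6 and 86.7 CPM in Control and between 40.1 and 43.0 in ENZ, and of the 3 that could be tested LUM and DCN, proteoglycans of the extracellular matrix, fell (−1.17 ± 0.056 and −2.66 ± 0.30, log2 fold change ± SE, edgeR). Of the 9 prostate luminal markers 5 rose and 3 fell, so their sum does not describe each of them. The part these differences have in the results below was not tested.

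A ribosome holds 1 copy of nearly every one of these proteins, so cells make them in balanced amounts, and proteins that find no partner are degraded quickly. Most of their mRNAs begin with a cytosine followed by an unbroken run of pyrimidines, the 5′ terminal oligopyrimidine (TOP) motif, through which the kinase complex mTORC1 and the binding protein LARP1 govern both the translation and the stability of the mRNA. Growing cells, tumour cells among them, spend a large share of their transcription on this family.

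The RefSeq starts of the members carried that motif. Of the 62 members with an entry in the RefSeq promoter table (GRCh38.p14), 42 (67.7%) had a C at the annotated start followed by at least 4 pyrimidines, against 1104 of 27305 promoters in the whole table (4.04%). When the run was allowed to begin within 5 bases of the start, the shares were 80.6% and 21.1%. The start carried it in 25 of 38 large-subunit genes and in 17 of 24 small-subunit genes, with runs of 5 to 19 bases and a median of 8. Mitochondrial ribosomal protein genes, which encode the ribosome inside mitochondria, had it in 4 of 73 (5.48%). The sequences below show 15 bases before and 15 after the annotated start, 5′ to 3′ on the strand of the gene. Capitals mark only a pyrimidine run that begins at the annotated start. RPS18, RPL13A, RPS14 and RPS6 were among the members that differed most between the groups, and RPLP1 belongs to the stalk. RPS24 changed least of the members with over 100 CPM, and RPL4 and RPS26 have no run at the annotated start. In RPL4 a run (cttccttttc) begins 5 bases after the annotated start, so RPL4 has the motif when that distance is allowed.
RPS18 (chr6:33272060-33272089, plus strand): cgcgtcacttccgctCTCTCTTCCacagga
RPL13A (chr19:49487593-49487622, plus strand): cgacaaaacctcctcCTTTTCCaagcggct
RPS14 (chr5:150449725-150449754, minus strand): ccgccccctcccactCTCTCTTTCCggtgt
RPS6 (chr9:19380222-19380251, minus strand): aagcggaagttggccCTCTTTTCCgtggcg
RPLP1 (chr15:69452803-69452832, plus strand): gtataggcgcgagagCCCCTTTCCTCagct
RPS24 (chr10:78033848-78033877, plus strand): cggcgaatcgtggttCTCTTTTCCTCCTTg
RPL4 (chr15:66504841-66504870, minus strand): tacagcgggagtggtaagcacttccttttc
RPS26 (chr12:56041903-56041932, plus strand): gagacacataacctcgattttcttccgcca
The run of RPS24 was 14 bases long and that of RPS18 was 9.

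Short motifs were counted on both strands of the 300 bases from 250 before to 50 after the start, and none of them contains another. CGGAAG, the core recognised by ETS-family factors, was found in 62.9% of the 62 member promoters and in 19.9% of all 27305. ATGGCG, part of the YY1 motif, was found in 33.9% and 11.0%. GGGCGG, a GC box, was found in 54.8% and 44.6%, and TATAAA, the TATA box, in 8.06% and 12.0%. Among the 73 promoters of mitochondrial ribosomal protein genes, the ETS core was found in 50.7% and the YY1 part in 49.3%. Both were thus common there too, the ETS core less often and the YY1 part more often than in the members. A match describes the letters of the window and does not show that a factor was bound.

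The 77 genes took 4.27%, 4.40% and 4.35% of all counts in Control replicates 1 to 3 (mean 4.34 ± 0.0665%, SD, n = 3) and 4.70%, 4.96% and 5.10% in ENZ replicates 1 to 3 (4.92 ± 0.201%). Every ENZ library lay above every Control library, with ENZ replicate 1 the lowest of the 3 and ENZ replicate 3 the highest. In bulk libraries a level is a share of all counted RNA, and fewer cells of a kind cannot be told apart from less RNA per cell. The mean count of 71 of the 77 genes was at least 100 CPM and that of 11 at least 1000 CPM.

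Scaled to gene length, as FPKM (fragments per kilobase of gene and per 1000000 counts), the median member stood at 156 FPKM and the median tested gene at 3.23. RPS2, which lines the mRNA entry of the 40S subunit, had the highest level, with 1019 ± 19.4 FPKM in Control and 1104 ± 51.3 in ENZ (SD, n = 3 in each group). RPS12 followed with 749 ± 12.2 FPKM in Control and 867 ± 42.7 in ENZ, and RPL41, the smallest of the ribosomal proteins, with 659 ± 5.02 FPKM in Control and 738 ± 60.8 in ENZ. Among the next 5 were RPS18, RPL7A, RPL8 and RPLP0, with mean levels over all libraries of 637, 583, 569 and 536 FPKM. The order depends on the length used: the deposited FPKM divide by the union of all annotated exons in 74 of the 77 genes, which was 1.06 to 33.4 times the canonical transcript (median 3.31). Per kilobase of the canonical transcript, 5 of the 8 highest stayed among the 8 highest.

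Most ribosomal protein genes were moderately higher in the libraries labelled ENZ. Of the 77, 63 rose, 1 fell and 13 did not pass the test (adjusted p under 0.05 in edgeR's quasi-likelihood F test, with Benjamini-Hochberg correction over 18581 genes). Over all tested genes 20.5% rose and 19.3% fell, and among the 2534 tested genes of at least 100 CPM, the range that holds most members, 36.8% rose and 19.9% fell. The increases were small and alike: the 63 genes rose by between 1.08-fold and 1.26-fold, and the median log2 fold change was 0.21 over the 77 genes, −0.006 over all tested genes and 0.048 over those of at least 100 CPM. No member passed an absolute log2 fold change of 1, the size limit stated in the series design, which 2.98% of all tested genes passed together with the adjusted p. In 57 of the 77 genes all ENZ CPM lay above all Control CPM (21.7% of all tested genes), and in 2 all lay below (27.6%).

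**Figure D1:**
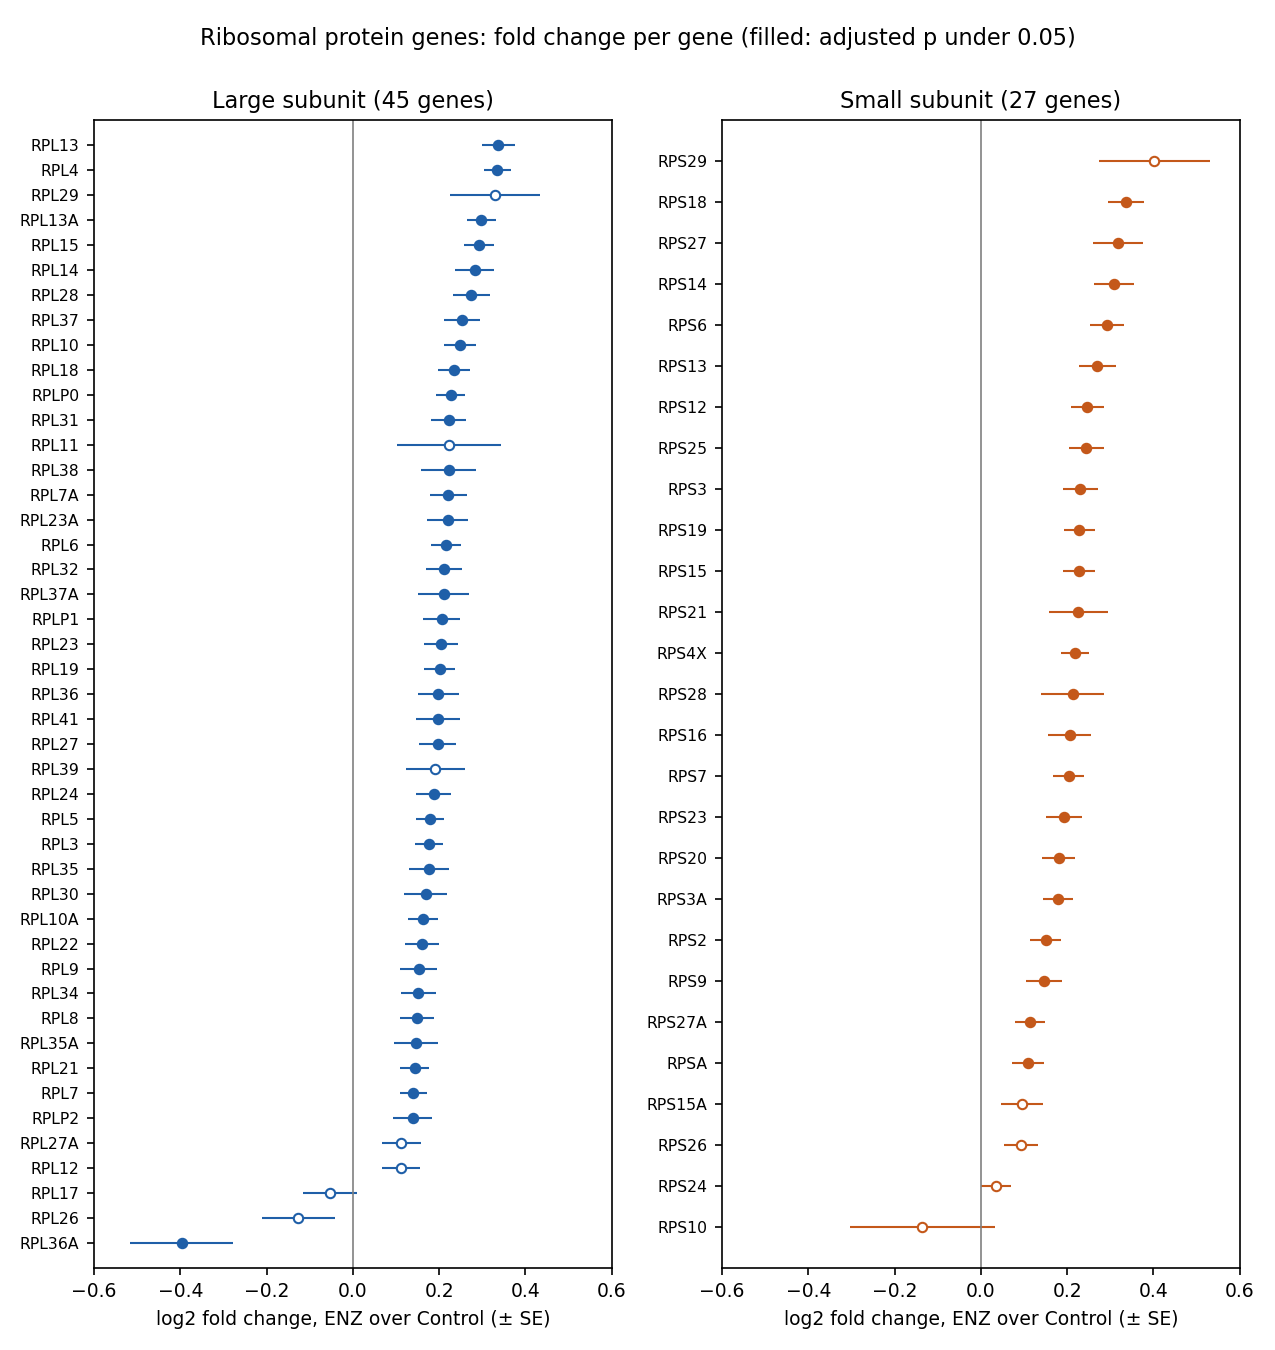
Log2 fold change of ENZ over Control with its standard error (horizontal axis) for 45 large-subunit genes (left) and 27 small-subunit genes (right), ordered by size. Filled points passed the adjusted p of 0.05. Most filled points lie between 0.1 and 0.34, and RPL36A is the only filled point below 0.

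**Figure D2:**
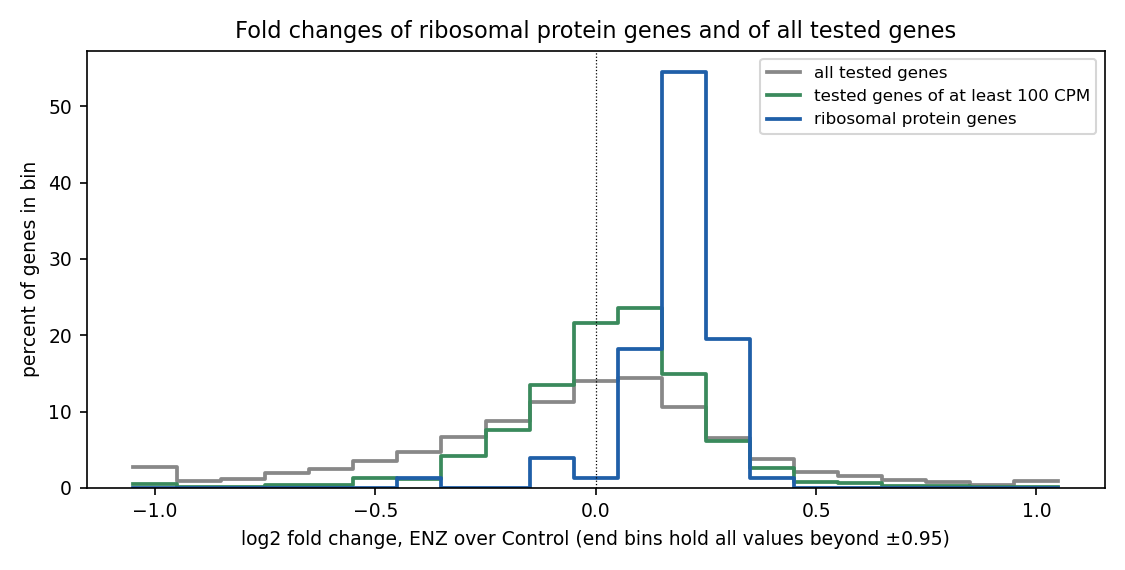
Percent of genes (vertical axis) in bins of log2 fold change of ENZ over Control (horizontal axis) for all 18581 tested genes, the 2534 of at least 100 CPM and the 77 ribosomal protein genes, with values beyond 0.95 in the end bins. Most ribosomal protein genes occupy a narrow range to the right of 0, inside the range of the other genes. Of the 77, 73 had a log2 fold change above 0, and the lowest was −0.40.

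The increase was also seen library by library. Against the Control mean, and scaled to library totals alone, the median member stood at 0.10, 0.17 and 0.23 on the log2 scale in ENZ replicates 1 to 3. The ENZ libraries thus differed among themselves in how far the family was raised, and the median coefficient of variation of a member across replicates was 4.97% in ENZ and 2.40% in Control. Without ENZ replicate 3, the library with the highest levels, the median log2 fold change was 0.16 for the large and 0.19 for the small subunit, and 36 and 24 genes rose. With 1 library left out at a time, all 63 kept their call without Control replicate 2 or ENZ replicate 1. Without Control replicate 1, 56 kept it, and those that lost it (log2 fold change) were RPS27A (0.11), RPSA (0.10), RPL35A (0.14), RPL34 (0.12), RPL30 (0.15), RPLP2 (0.13) and RPS28 (0.19). Without Control replicate 3, 56 kept it, and RPL37A (0.21), RPSA (0.11), RPL35A (0.13), RPLP2 (0.12), RPL38 (0.21), RPS21 (0.19) and RPS28 (0.17) lost it. Without ENZ replicate 2, 58 kept it, and RPSA (0.10), RPL35A (0.13), RPL9 (0.13), RPLP2 (0.13) and RPS28 (0.22) lost it. Without ENZ replicate 3, 59 kept it, and RPS27A (0.085), RPSA (0.075), RPL35A (0.10) and RPLP2 (0.10) lost it. RPSA, RPL35A and RPLP2, all among the smaller changes, lost the call in each of these 4 cases. Counts of mitochondrially encoded genes also moved with the group, at 3.15 to 3.31% of a library in Control and 3.44 to 3.50% in ENZ, and their part in the result was not tested.

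**Figure D3:**
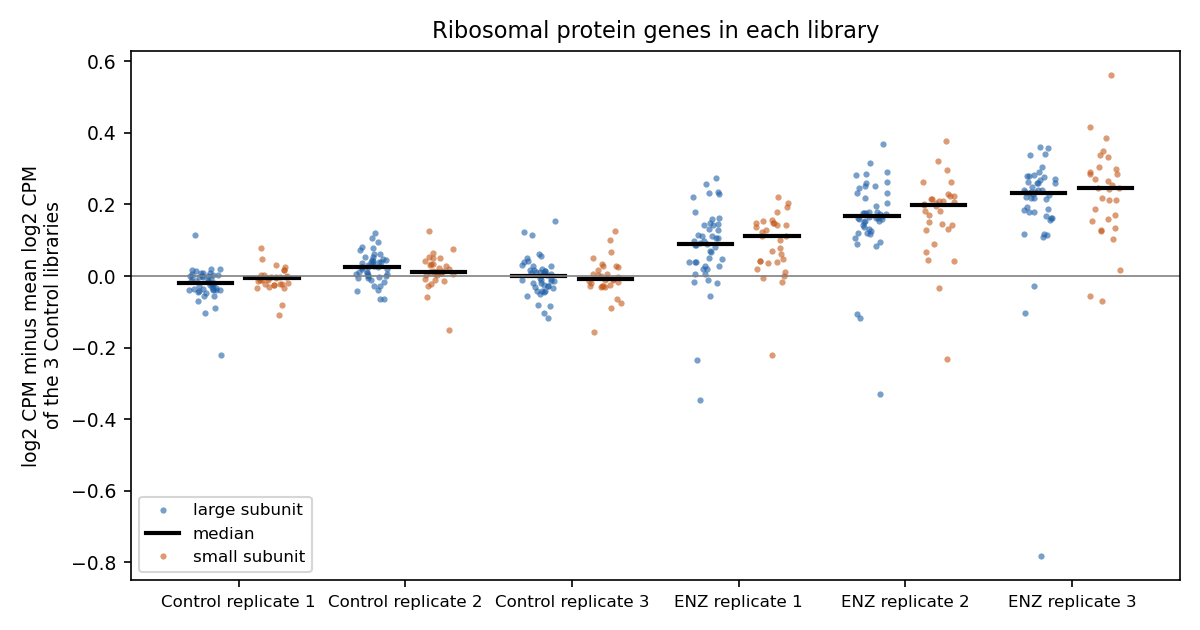
Each point is 1 ribosomal protein gene in 1 library: its log2 CPM minus the mean log2 CPM of the 3 Control libraries (vertical axis), with the large subunit in blue, the small subunit in orange and black bars at the medians. Control medians lie near 0, and the ENZ medians lie above them, lowest in replicate 1 and highest in replicate 3; the lowest point is RPL36A in ENZ replicate 3.

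The large and small subunits were raised to about the same extent. Of the 46 large-subunit genes 38 rose and 1 fell (median log2 fold change 0.20). Of the 31 small-subunit genes 25 rose and none fell (median 0.22). In Control replicates 1 to 3 the large subunit took 2.59%, 2.69% and 2.65% of counts and the small subunit 1.67%, 1.71% and 1.70%. In ENZ replicates 1 to 3 the shares were 2.88%, 3.03% and 3.11% for the large and 1.83%, 1.92% and 1.99% for the small subunit. Their ratio was 1.55, 1.57 and 1.56 in Control and 1.58, 1.58 and 1.56 in ENZ, so the ranges of the 2 groups met. Members are not replicates, and the 2 medians were not tested against each other.

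The largest increases in the large subunit belonged to RPL13 and RPL4. RPL13 (ENSG00000167526), a 60S protein encoded on chromosome 16 from 89560677 to 89564542 (GRCh38, plus strand), had 724, 752 and 701 CPM in Control replicates 1 to 3 and 852, 902 and 932 CPM in ENZ replicates 1 to 3. The lowest ENZ library exceeded the highest Control library, and the log2 fold change was 0.34 ± 0.039 (SE, adjusted p = 7.32e-07, edgeR). RPL4 (ENSG00000174444), which sends a long loop into the peptide exit tunnel and is encoded on chromosome 15 from 66498015 to 66524532 (minus strand), had 1979.6, 2026 and 2033 CPM in Control and 2436, 2453 and 2546 in ENZ. Here too the groups did not overlap, and each group was tight (log2 fold change 0.33 ± 0.032, adjusted p = 2.91e-08). RPL13A, a 60S protein also known for a role in silencing inflammatory mRNAs, had 1326, 1404 and 1354 CPM in Control and 1595, 1665 and 1640.4 in ENZ, without overlap (log2 fold change 0.30 ± 0.033, adjusted p = 3.71e-07). Its gene holds 4 small nucleolar RNAs (SNORD32A, SNORD33, SNORD34 and SNORD35A) in GENCODE 44.

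RPL4 heads a list of 8 proteins that line the peptide exit tunnel or its rim, where the new protein chain leaves the ribosome. Of these, 5 rose and none fell, with a median of 0.20, where 63 of all 77 members and 20.5% of all tested genes rose. RPL31, RPL23A, RPL19 and RPL35, which surround the opening where chaperones and the signal recognition particle dock, rose by log2 fold changes of 0.22 ± 0.041, 0.22 ± 0.047, 0.20 ± 0.036 and 0.18 ± 0.047 (SE). In RPL31, RPL23A and RPL19 all ENZ libraries lay above all Control libraries, whereas those of RPL35 overlapped. RPL39, a very small protein of the tunnel wall, had 185, 171 and 157 CPM in Control and 174, 198 and 199.9 in ENZ; ENZ replicate 1 lay inside the Control range and the test was missed (log2 fold change 0.19 ± 0.069, adjusted p = 0.0522). RPL17 and RPL26, the remaining pair, are described with the members of low counts.

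The stalk recruits the elongation factors and consists of RPLP0, its anchor, the paired acidic proteins RPLP1 and RPLP2, and RPL12 at the base. RPLP0 had 1949.5, 2000.0 and 2033 CPM in Control and 2184, 2295 and 2354 in ENZ, with no overlap (log2 fold change 0.23 ± 0.034, adjusted p = 1.82e-05). RPLP1 had 473, 489 and 459.6 CPM in Control and 504, 530.3 and 567 in ENZ and was likewise higher in each ENZ library (0.21 ± 0.043, adjusted p = 8.05e-04). RPLP2 had 415, 439 and 409 CPM in Control and 423, 457 and 476 in ENZ, overlapping because ENZ replicate 1 lay below Control replicate 2 (0.14 ± 0.045, adjusted p = 0.0202). Its call ended with library totals alone (adjusted p = 0.0616) and without Control replicate 1, Control replicate 3, ENZ replicate 2 or ENZ replicate 3 (log2 fold changes 0.13, 0.12, 0.13 and 0.10). RPL12 had 674, 718 and 657 CPM in Control and 675, 745 and 740.3 in ENZ and just missed the test (0.11 ± 0.044, adjusted p = 0.0546), with ENZ replicate 1 inside the Control range.

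RPL5 and RPL11 bind 5S ribosomal RNA before it joins the large subunit, and the free complex can hold the ubiquitin ligase MDM2. RPL5 had 619, 613 and 621 CPM in Control and 665, 681 and 701 in ENZ, with little spread inside each group, and rose (log2 fold change 0.18 ± 0.034, adjusted p = 2.00e-04). RPL11 had 396, 403 and 468 CPM in Control and 427, 475 and 539 in ENZ. Control replicate 3 stood above ENZ replicate 1, and the change of 0.22 ± 0.12 did not pass (95% interval −0.10 to 0.54, adjusted p = 0.224). The estimate of RPL11 was no smaller than that of RPL5, and its libraries spread more within each group.

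In the small subunit, the head carries the decoding-site wall and the mRNA exit and was described by a list of 14 genes. Of these 14 genes 11 rose and none fell (median log2 fold change 0.23), where 63 of all 77 members and 20.5% of all tested genes rose. RPS18 (ENSG00000231500), at the contact between head and large subunit and encoded on chromosome 6 from 33272075 to 33276511 (plus strand), had 1048, 1052 and 1039 CPM in Control replicates 1 to 3 and 1195, 1307 and 1367 CPM in ENZ replicates 1 to 3. Control libraries were almost equal, ENZ libraries were all higher, and the log2 fold change was 0.34 ± 0.043 (SE, adjusted p = 8.68e-06). RPS12 and RPS25, the latter needed for initiation at several viral internal entry sites, rose by 0.25 ± 0.038 and 0.24 ± 0.042 on the log2 scale. RPS3, which lines the mRNA entry channel, rose by 0.23 ± 0.041. None of these 4 overlapped between the groups.

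The body and platform list held 17 genes, of which 14 rose and none fell (median log2 fold change 0.20). The same shares, 63 of all 77 members and 20.5% of all tested genes, stand beside that count. RPS27, a zinc-binding protein of the platform, had 344, 341 and 349 CPM in Control and 383, 413 and 459.7 in ENZ (log2 fold change 0.32 ± 0.057, adjusted p = 9.13e-04). RPS14, whose loss on chromosome 5 is linked to a myelodysplastic syndrome, had 456, 478 and 437 CPM in Control and 517, 561 and 582 in ENZ (0.31 ± 0.046, adjusted p = 6.38e-05). RPS6, the substrate of the S6 kinases downstream of mTORC1, had 1149.7, 1263 and 1241 CPM in Control and 1403, 1459.9 and 1504 in ENZ (0.29 ± 0.039, adjusted p = 8.51e-06). In each of these the lowest ENZ library stood above the highest Control library. RPS13 rose by 0.27 ± 0.043, again without overlap. RPS2, the most abundant member per length, had 2384, 2440.5 and 2476 CPM in Control and 2495, 2694 and 2718 in ENZ and rose by 0.15 ± 0.036 (adjusted p = 0.00193).

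Further large-subunit genes that rose are given here as log2 fold changes. They include RPL10, which completes the site where transfer RNA is held and is mutated in some T-cell leukaemias, and RPL3, which stands nearest the peptidyl transferase centre. In descending order they were RPL14 (0.28), RPL28 (0.27), RPL37 (0.25), RPL10 (0.25), RPL38 (0.22), RPL7A (0.22), RPL6 (0.22), RPL32 (0.21), RPL37A (0.21), RPL23 (0.20), RPL36 (0.20), RPL41 (0.20) and RPL27 (0.20). The lower ones were RPL24 (0.19), RPL3 (0.18), RPL30 (0.17), RPL10A (0.16), RPL22 (0.16), RPL9 (0.15), RPL34 (0.15), RPL8 (0.15), RPL35A (0.15), RPL21 (0.14) and RPL7 (0.14). Groups overlapped in RPL30, RPL9 and RPL35A, in each of which ENZ replicate 1 lay inside the Control range, and in none of the others in these 2 sentences. RPL3 had 1879, 1932 and 1941 CPM in Control and 2043, 2149 and 2155 in ENZ, and RPL10 583, 604 and 579 CPM in Control and 650.3, 691 and 706 in ENZ, and in both each ENZ library stood above every Control library. RPL8 lost its call with GC and length offsets (0.048, adjusted p = 0.194), as did RPL37A (0.29, adjusted p = 0.0819), and RPL35A lost it with library totals alone (0.11, adjusted p = 0.0838).

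Beyond the 40S genes named above, and RPS19 and RPS27A below, small-subunit genes that rose included RPS15 (0.23), RPS21 (0.23), RPS4X (0.22), RPS28 (0.21), RPS16 (0.21), RPS7 (0.20), RPS23 (0.19), RPS20 (0.18), RPS3A (0.18), RPS9 (0.15) and RPSA (0.11). RPS4X is encoded on the X chromosome and escapes its inactivation, and RPSA, at the mRNA exit, is also known as a laminin receptor. RPS4X had 652, 629 and 635 CPM in Control and 711, 725 and 741 in ENZ, tight and apart. RPSA had 1294, 1318 and 1308 CPM in Control and 1302, 1389 and 1435 in ENZ, with ENZ replicate 1 inside the Control range, and gave the smallest change of all 63 genes that rose. Groups also overlapped in RPS28 and RPS16. With library totals alone RPSA and RPS28 did not pass (adjusted p = 0.078 and 0.0717), and with GC and length offsets RPS9 did not (0.070, adjusted p = 0.0797).

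**Figure D4:**
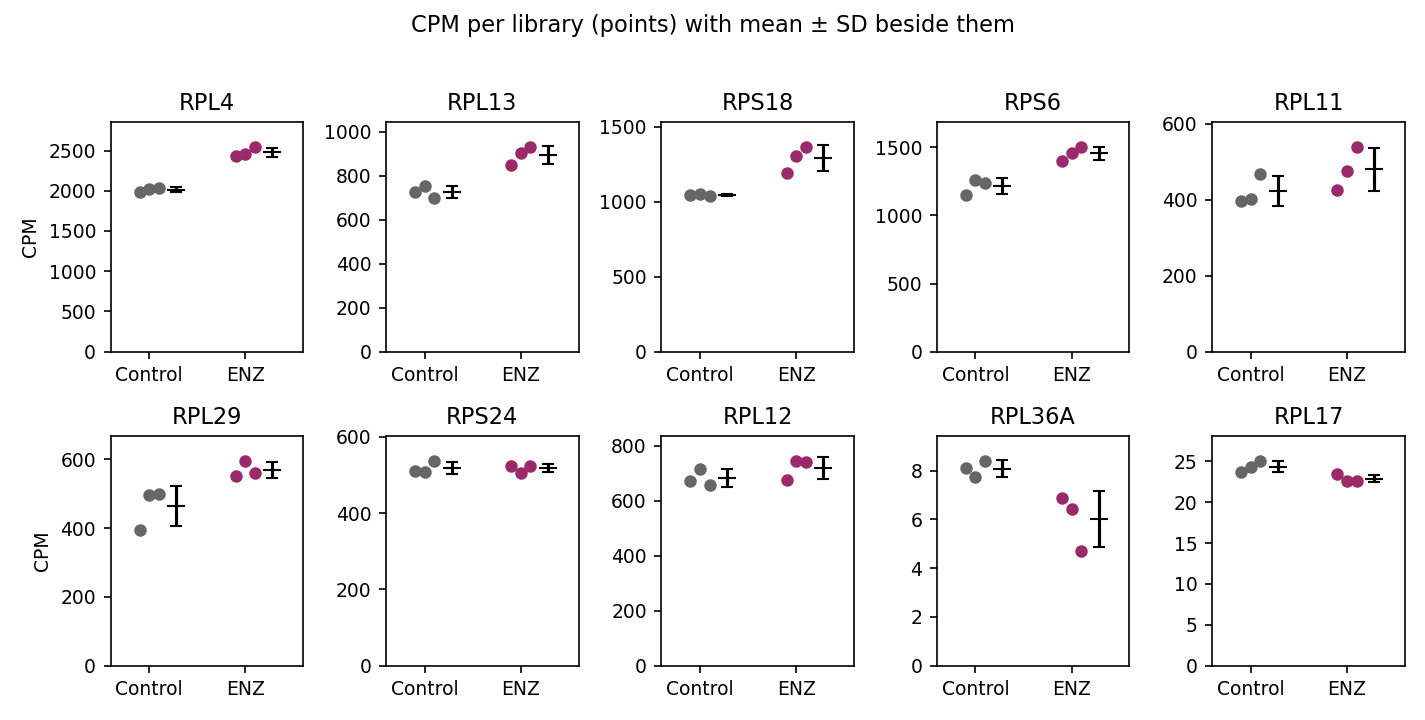
CPM (vertical axis, from 0) of 10 ribosomal protein genes in the 3 Control libraries (grey) and the 3 ENZ libraries (purple), replicates in order from left to right, with the group mean and SD in black. RPL4, RPL13, RPS18 and RPS6 separate the groups, RPL11, RPS24 and RPL12 overlap, and RPL36A and RPL17 stand at a far lower level with ENZ below Control.

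Of the 13 members that missed the test, 9 had ample counts, from 75.8 CPM upwards, and estimates above 0. RPS29 had 69.8, 69.6 and 59.3 CPM in Control and 72.9, 85.8 and 97.5 in ENZ. All ENZ libraries were higher, yet both groups spread widely, and its estimate of 0.40 ± 0.13, the highest of all 77, missed the threshold (adjusted p = 0.0544; 95% interval 0.083 to 0.72). RPL29, a 60S surface protein, had 396, 497 and 499 CPM in Control and 551, 596 and 560.1 in ENZ. Control replicate 1 stood well below the other 2 Control libraries, and the groups did not overlap (0.33 ± 0.10, adjusted p = 0.059). Without Control replicate 1 RPL29 passed with a smaller estimate (0.23, adjusted p = 5.61e-04). RPL27A, RPS26 and RPS15A overlapped between groups, with 0.11 ± 0.045, 0.093 ± 0.040 and 0.095 ± 0.048 (adjusted p = 0.062, 0.0659 and 0.126).

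RPS24, a 40S protein whose mRNA has several tissue-dependent last exons, was the member of high counts that moved least. It had 510.2, 508 and 537 CPM in Control and 525, 507 and 524 in ENZ, and the libraries of both groups were interleaved. The log2 fold change was 0.035 ± 0.034 (95% interval −0.036 to 0.11, adjusted p = 0.443), an interval that ends below the median of the family. With offsets for GC content and length it was 0.15 and passed (adjusted p = 3.74e-04), still below the median of 0.24 that the members had with those offsets.

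The remaining 5 members had far fewer counts, and these were the members whose exons lie under another gene. In GENCODE 44, between 43.8% and 96.9% of the canonical exon bases of these members, RPL17, RPS10, RPL26 and RPL36A among them, are also exons of a protein-coding gene on the same strand, such as the readthrough genes RPL17-C18orf32, RPS10-NUDT3 and RPL36A-HNRNPH2, against at most 11.2% in the other 72. These 5 averaged no more than 23.6 CPM, and the other 72 no less than 75.8 CPM. The readthrough genes themselves had few counts: RPS10-NUDT3 had 0 to 6 counts per library and RPL17-C18orf32 0 to 4. The sources do not state how reads shared by overlapping genes were treated. The values of these 5 are therefore uncertain, and the part of the overlap in their low counts was not tested.

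The direction of the 5 is given without a test, since they were set apart after their counts were seen. None rose, RPL36A fell, and their median log2 fold change was −0.13, whereas all 72 others had estimates above 0, 63 of them past the test, with a median of 0.21. RPL36A (ENSG00000241343, X chromosome, 101390824 to 101396155, plus strand) had 8.12, 7.73 and 8.39 CPM in Control and 6.86, 6.43 and 4.69 in ENZ. All ENZ libraries were lower, replicate 3 most of all (log2 fold change −0.40 ± 0.12, adjusted p = 0.0108). Without ENZ replicate 3 the estimate was −0.25 and the call ended (adjusted p = 0.0885). RPL17 had 23.7, 24.3 and 25.1 CPM in Control and 23.4, 22.6 and 22.7 in ENZ, RPL26 19.3, 20.4 and 17.8 CPM in Control and 15.1, 17.6 and 18.7 in ENZ, and RPS10 2.41, 2.13 and 2.59 CPM in Control and 2.03, 2.02 and 2.28 in ENZ. The groups of RPL26 and RPS10 overlapped, and the estimates of the 3 were −0.054 ± 0.063, −0.13 ± 0.084 and −0.14 ± 0.17 (adjusted p = 0.53, 0.249 and 0.557).

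**Figure D5:**
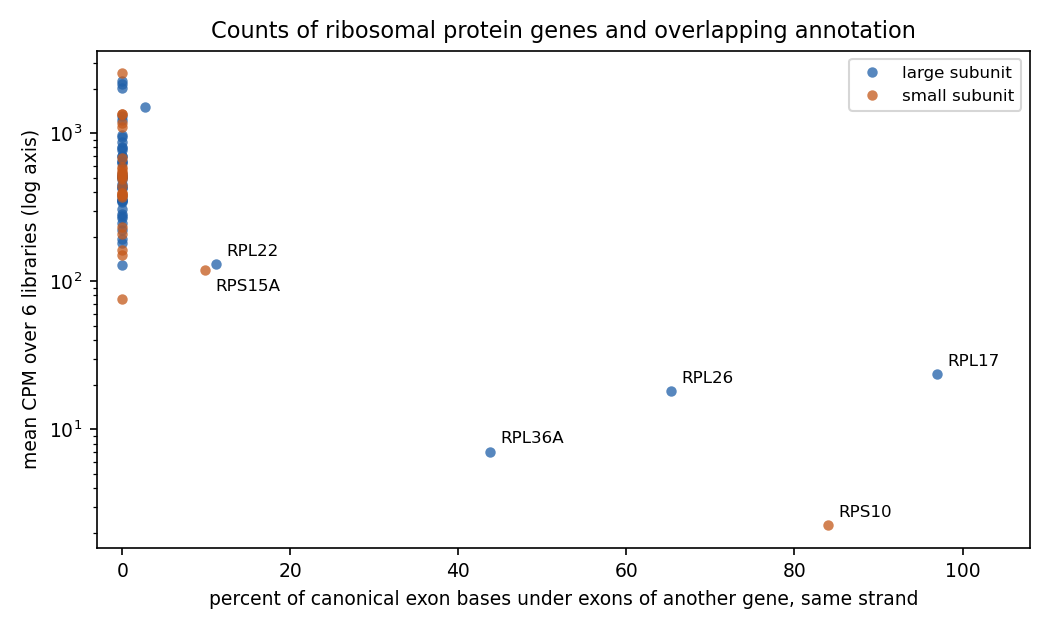
Mean CPM over 6 libraries (vertical axis, log scale) of 72 ribosomal protein genes against the percent of its canonical exon bases that also belong to exons of another gene on the same strand (horizontal axis). The 4 genes above 40% are the 4 with the lowest counts shown, and RPL22 and RPS15A are next in overlap.

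Processed pseudogenes, intronless copies of these mRNAs, add a second uncertainty because reads can match a parent and its copy alike. The table held 836 pseudogene rows named after 75 of the members, and in sum they took 0.166 to 0.198% of a library. Where the parent was low, the copy was often higher: RPL36AP37 averaged 51.6 CPM and RPL17P7 36.6 CPM. With pseudogene counts added to the parent, an alternative chosen after the data were seen, RPL36A and RPL17 turned to 0.15 and 0.17 (adjusted p = 0.0364 and 0.00967). RPS10 went further down, to −0.25 (adjusted p = 0.0233), through RPS10P7, which had 241, 250 and 258 counts in Control and 202, 168 and 215 in ENZ. All 63 members called higher kept that call.

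Features that the naming rule did not use split the members as follows. Each count stands beside 63 of all 77 members that rose, 20.5% of all tested genes and 36.8% of those of at least 100 CPM. The 28 members that hold 60 annotated small nucleolar RNA genes in their introns, guides for the modification of ribosomal RNA, included 24 that rose (median log2 fold change 0.21), and the other 49 included 39 (0.21). The 42 members with a TOP run at the annotated start included 34 that rose (median 0.21), the 20 without it 16 (0.21), and the 15 with no promoter entry 13 (0.18). Within 5 bases of the start, 50 of the 62 members with an entry had a run. The 20 thus include members with a run nearby, RPL4 among them, and do not stand for mRNAs without the motif. Members lay on 21 chromosomes, with 12 on chromosome 19 and 7 on chromosome 3. All 12 on chromosome 19 rose (median 0.23, against 0.20 for the other 65). Those 12 were also richer in GC, with a median of 56.0% against 46.7%, and with offsets for GC content and length the order turned, to 0.17 and 0.26.

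GC content moved with the comparison over all genes. The median log2 fold change was −0.18 for tested genes under 40% GC, 0.14 for those over 60% and 0.0074 between. The 71 members between 40 and 60% GC had a median of 0.21. With GC and length offsets 65 members rose and their median was 0.24, beside 0.034 over all tested genes. Scaled to library totals alone, 58 members rose with a median of 0.17, beside −0.040. Across the 72 members without same-strand overlap, the log2 fold change had a Spearman rho of 0.17 with mean CPM and 0.18 with GC content, and over all 77 these were 0.32 and 0.25. These members share libraries, and the values describe them without a test.

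Mutations that reduce 1 copy of certain ribosomal protein genes cause Diamond-Blackfan anaemia, a failure of red cell production. Of the 19 members on that list 11 rose, 8 were not called and none fell (median log2 fold change 0.20). Of all 77 members 63 rose, and of all tested genes 20.5% rose and 19.3% fell. RPL15, RPL18 and RPS19, the last the gene mutated most often in that disease, rose by 0.29 ± 0.034, 0.23 ± 0.037 and 0.23 ± 0.035 (SE). The list also holds RPS10 and RPL26, whose exons lie under other genes.

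RACK1 and FAU, ribosome components outside the naming rule, both rose. RACK1, a scaffold on the 40S head, had 843, 845 and 871 CPM in Control and 961, 998 and 1033 in ENZ and rose by 0.26 ± 0.035 (adjusted p = 3.82e-06). FAU, made as a fusion of a ubiquitin-like protein with the 40S protein eS30, rose by 0.14 ± 0.039 (adjusted p = 0.00718), a call that ended without Control replicate 1 (0.12, adjusted p = 0.0541). RPS27A, a member made as a fusion of ubiquitin with a 40S protein, rose by 0.11 ± 0.035 (adjusted p = 0.0126), a call that ended with library totals alone (adjusted p = 0.052).

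Paralogues are near copies that can replace a family member in some tissues. Of 7 paralogues tested, 3 rose and none fell, with a median of 0.041. The 3 were RPL26L1 (0.16 ± 0.052), RPL22L1 (0.13 ± 0.044) and RPL7L1 (0.12 ± 0.033), and the first 2 lost the call with library totals alone (adjusted p = 0.066 and 0.0794). The call of RPL26L1 also ended without Control replicate 1 or 2 or ENZ replicate 3 (0.14, 0.15 and 0.13), and that of RPL22L1 without Control replicate 1 or 3 or ENZ replicate 2 or 3 (0.12, 0.13, 0.13 and 0.087). RPL36AL, the paralogue of RPL36A, had 62.3, 64.1 and 73.5 CPM in Control and 64.8, 65.0 and 66.7 in ENZ, with overlap (0.011 ± 0.056, adjusted p = 0.898), and with GC and length offsets it passed at 0.26 (adjusted p = 8.98e-04). Of 85 mitochondrial ribosomal protein genes tested, 23 rose and 7 fell (median 0.070), where over all tested genes 20.5% rose and 19.3% fell.

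A list of other translation genes known for TOP mRNAs held 18 tested genes. Of the 18, which include RACK1, 11 rose and 1 fell, with a median of 0.14. Over all tested genes 20.5% rose and 19.3% fell, and among those of at least 100 CPM 36.8% rose and 19.9% fell. EEF1A1, which delivers aminoacyl-tRNA to the ribosome, had 8006, 8009.8 and 8037 CPM in Control and 9764, 9906 and 10098 in ENZ, well apart (0.34 ± 0.029, adjusted p = 5.13e-09). EEF2, the translocation factor, had 3225, 3341 and 3125 CPM in Control and 3559.9, 3800.0 and 3809 in ENZ (0.24 ± 0.035, adjusted p = 1.41e-05), again without overlap. EIF3L, TPT1 and EIF4B rose by 0.33 ± 0.036, 0.24 ± 0.034 and 0.22 ± 0.033 (SE). The 1 decrease, in the nucleolar protein NPM1 (−0.10 ± 0.032, adjusted p = 0.0211; named after its value was seen), turned to 0.092 with GC and length offsets. Its call also ended without Control replicate 1, 2 or 3 or ENZ replicate 2 or 3, with estimates from −0.10 to −0.073.

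Initiation factors outside that list rose about as often as tested genes as a whole and less often than abundant ones. Of 26 tested, 5 rose and 7 fell (median 0.017), beside 20.5% and 19.3% of all tested genes. The median level of the 26 was 218 CPM, and among tested genes of at least 100 CPM 36.8% rose and 19.9% fell. EIF5, which makes the start-codon complex release its phosphate, had 308, 299 and 312 CPM in Control and 218, 216 and 209.9 in ENZ, with ENZ far below (−0.48 ± 0.035, adjusted p = 4.16e-10). EIF4G2, a scaffold for cap-independent initiation, and EIF5B, which joins the subunits, fell by log2 fold changes of −0.29 ± 0.032 and −0.28 ± 0.062. EIF1AX fell too (−0.24 ± 0.049), but with GC and length offsets it stood at 0.010. EIF3D, a subunit of eIF3, rose (0.21 ± 0.037). EIF4A1, the main helicase, was listed at 5.20 CPM and fell (−0.45 ± 0.12); it overlaps the readthrough gene SENP3-EIF4A1 on the same strand, so its value carries the same uncertainty as that of RPL36A.

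Genes of mTORC1 and of the proteins that bind TOP mRNAs were tested as a list of 17, of which 7 rose and 2 fell (median 0.10), where 20.5% of all tested genes rose and 19.3% fell, and 36.8% and 19.9% of those of at least 100 CPM. MLST8, a subunit of the complex, had 108, 115 and 108 CPM in Control and 142, 142 and 142 in ENZ, and the 3 ENZ libraries were almost identical (0.40 ± 0.041, adjusted p = 9.53e-08). EIF4EBP1, the translation repressor that mTORC1 switches off, had 110.0, 117 and 112 CPM in Control and 131, 136 and 138 in ENZ (0.29 ± 0.042, adjusted p = 1.04e-05), and TSC1, which restrains the complex, rose by 0.19 ± 0.053. TBC1D7, its partner, rose by 0.23 ± 0.079, a call that ended with library totals alone, in DESeq2 and without Control replicate 2 or 3 or ENZ replicate 2 or 3 (0.18 to 0.23 in those 4). LARP1, the TOP-binding protein, had 481, 487 and 473 CPM in Control and 519.6, 536 and 539 in ENZ and rose by 0.18 ± 0.034 (adjusted p = 1.89e-04; named after its value was seen). The 2 that fell were TIA1, an RNA-binding protein of stress granules that also binds TOP mRNAs (−0.43 ± 0.049, adjusted p = 4.23e-07), and LARP4, which protects poly(A) tails (−0.33 ± 0.046, adjusted p = 7.66e-06). In both, all ENZ libraries lay below all Control libraries. Activity of mTORC1 was not measured.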

How the data were processed

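Gene-level counts and FPKM values of 6 poly(A) RNA-seq libraries, 3 labelled Control and 3 labelled ENZ (grouped by sample title), were analysed. The kit, named in the labels' protocols, does not record strand. Per the submitters' processing notes, the tools were HISAT2 (2.0.5), HTSeq (0.6.1) and, for testing, DESeq2 (1.20.0), on GRCh38. The counting's overlap mode: not given in the sources used here. The authors deposited whole-number counts for 37923 genes. The deposited FPKM are those counts over a fixed length of each gene and the total of the library, to within 6.34e-06% for values of at least 10 counts.

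Counts were tested with edgeR 4.0.16 in R 4.3.3 (TMM factors, default expression filter, robust quasi-likelihood F test) and adjusted by Benjamini and Hochberg over the 18581 genes kept; the script was tested on simulated data. Calls used an adjusted p under 0.05. The SE is the size of the log2 fold change over the root of F, and intervals are at 95%. CPM are scaled to library totals. Genes with antisense neighbours (32 members) were kept. Positions, exons and small nucleolar RNAs come from GENCODE 44.

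The members and gene lists were chosen with earlier results of these data known. Named were the 8 members of highest FPKM, the 8 of largest and the 8 of smallest log2 fold change, all not called, the stalk, 5S and exit tunnel lists, and up to 6 genes of largest change in each other list; others are marked. Some genes that this rule names are not reported here. Replicate numbers did not pair the libraries (correlations of same-numbered deviations 0.018, −0.012 and −0.046). Alternatives were DESeq2 1.42.0, limma-voom (limma 3.58.1), other scalings and filters, a replicate block, GC and length offsets, limma on log2 FPKM with pseudocounts of 1 and 0.1, each library left out, and, added after the data were seen, TMM without the members and pseudogene counts added to their parents.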

Additional observations from a re-analysis of the deposited data

How the results depend on the processing

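Of the 63 members called higher, all 63 kept the call in DESeq2, limma-voom, median-ratio size factors, TMM factors computed without the members, no filter, a minimum of 10 counts in 3 libraries, and with pseudogene counts added; 60 kept it with GC and length offsets, 58 with library totals alone, 48 on filtered log2(FPKM + 1) and 30 in all 19 alternatives. On log2(FPKM + 1) without a filter, 17 large-subunit and 13 small-subunit genes rose and 0 large-subunit genes fell, while over all genes 1723 rose and 2005 fell. With the filter, 2526 genes rose on log2(FPKM + 1) and 2520 on log2(FPKM + 0.1), against 3814 in edgeR. With pseudogene counts added, 0 large-subunit genes and 1 small-subunit gene fell, RPL36A stood at 0.15 and RPL17 at 0.17. With each library left out in turn, 35 to 41 large-subunit genes and 22 to 28 small-subunit genes rose, 0 to 1 large-subunit genes fell, the medians ran from 0.16 to 0.25 and from 0.19 to 0.27, and over all genes 3041 to 4264 rose and 2782 to 3994 fell. GC and length offsets changed the sign of EEF1D (−0.10), EIF3E (0.13), EIF4A2 (0.13), NPM1 (0.092), EIF1AX (0.010), EIF3B (−0.086), EIF3G (−0.086), EIF3J (0.12), EIF4E (0.14), TIAL1 (0.14), NAP1L1 (0.18), IPO5 (0.092), IPO7 (0.18) and TAF1B (0.17); among the ribosomal protein genes RPL17, which passed in neither fit, changed sign (0.085), and the cause was not tested. With the replicate number as a block, 42 large-subunit and 26 small-subunit genes rose, and all 63 kept the call; the numbers did not pair the libraries, and this says nothing about the size of an effect. The share of calls that were increases was 51.6% in edgeR, 43.1% with library totals alone and 60.9% with the offsets. The members outside the 5 under overlapping genes averaged at least 75.8 CPM. RPS10 had 54 to 69 counts per library, and the part of counting error in its missed call was not tested.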

Other observations

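Chaperones and importers carry ribosomal proteins to the nucleus or hold them until assembly. Of 15 tested, 3 rose and 4 fell, with a median log2 fold change of −0.021; of all tested genes 20.5% rose and 19.3% fell, so these counts are near the background, as are those of RNA polymerase I and of the increases among pseudogenes below. TNPO1, a nuclear importer, had 319, 297 and 321 CPM in Control and 273, 248 and 237 in ENZ, and ENZ lay below Control throughout (−0.27 ± 0.044, adjusted p = 5.88e-05, edgeR). RPF2, which brings the 5S complex into the large subunit, had 108, 102 and 105 CPM in Control and 91.9, 87.4 and 82.3 in ENZ (−0.23 ± 0.045, adjusted p = 2.64e-04), whereas RRS1, which acts with it, rose (0.16 ± 0.051, adjusted p = 0.0195; named after its value was seen), a call that ended with library totals alone (adjusted p = 0.0622). With GC and length offsets TNPO1 and RPF2 stood at −0.067 and −0.076 and did not pass. BCCIP, a chaperone of RPL23, fell (−0.25 ± 0.049) and TSR2, the escort of RPS26, rose (0.24 ± 0.051, adjusted p = 8.17e-04), each without overlap between the groups. RPS26 itself did not pass.

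Genes tied to the sensing of unassembled ribosomal proteins made up a further list. Of these, CDKN1A, which encodes the cell cycle inhibitor p21, had 242, 244 and 235 CPM in Control and 386, 404 and 411 in ENZ and rose by 0.77 ± 0.037 on the log2 scale (adjusted p = 3.06e-13), a far larger change than that of any ribosomal protein gene. MDM4, a relative of MDM2, fell (−0.30 ± 0.045, adjusted p = 1.71e-05). MDM2 was lower (−0.19 ± 0.059, adjusted p = 0.0185), but not past the test with GC and length offsets (−0.031) or without Control replicate 1, Control replicate 3, ENZ replicate 2 or ENZ replicate 3 (−0.16, −0.16, −0.17 and −0.13). RNA polymerase I, which transcribes ribosomal RNA, had 2 of 14 genes higher and 3 lower (median −0.051), beside the same 20.5% and 19.3%. TAF1A, a subunit of its promoter factor, had 17.0, 15.5 and 17.0 CPM in Control and 11.9, 11.3 and 11.0 in ENZ and fell by 0.50 (adjusted p = 2.67e-05).

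Among the pseudogene rows, 156 of 836 passed the filter, 33 rose and 6 fell (median log2 fold change 0.16), beside 20.5% and 19.3% of all tested genes. RPL9P7, the most abundant, had 111, 114 and 120.3 CPM in Control and 141, 136 and 155 in ENZ, without overlap, and rose by 0.36 ± 0.049 (adjusted p = 9.02e-06), more than RPL9 itself (0.15 ± 0.043). The difference between the 2 was not tested. In 12 members the pseudogene counts exceeded 10% of the parent's own.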
